A study of Mus musculus with 6 samples.

Results

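The genes described here take part in actin assembly and were read in mouse lung. They are the thymosin beta genes Tmsb4x, Tmsb10, Tmsb15b2 and Tmsb15l and the formin genes Fmn1, Fmn2, Fmnl1, Fmnl2, Diaph1 and Daam1. They were chosen by name as thymosin beta and formin genes, with earlier results of these data known, and are 10 of the 25860 genes in the table of read counts. Normal-looking lung tissue was taken at 12 months of age from untreated mice, with 1 RNA library each, in a group of 3 labelled RAG1-/- (replicates 1, 2 and 3) and a group of 3 labelled RAG1-/-Sgo1-/+ (replicates 4, 5 and 6). All 6 mice were labelled as lacking both copies of Rag1, which developing T and B cells need to assemble their antigen receptors, so the control group is by its label immunodeficient. The second group was labelled as also lacking 1 copy of Sgo1, which encodes shugoshin 1, the protector of cohesion at centromeres, and the study used it as a model of chromosome instability. The study asked how chromosome instability influences the lung. Whole lung tissue was used, so fewer cells of a type and less RNA per cell cannot be told apart in any value given here.

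Thymosin beta peptides bind single actin subunits (monomers) and hold them in a reserve that cannot join a filament. Formins act at the other end of the process: they sit at the growing end of a filament, start new unbranched filaments and add subunits delivered by profilin. Filaments built by formins form stress fibres, filopodia, cell junctions and the contractile ring of dividing cells. Tmsb4x is known as a very abundant transcript of leukocytes and endothelial cells.

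The coding sequences of the thymosin beta genes are shown because reads of near-identical genes are hard to assign. The first pair is given with capitals at the bases in which the 2 genes differ, 40 of 135. The other 95 bases (70.4%) are the same. Tmsb4x lies at chrX:167207501-167208036 and Tmsb10 at chr6:72957618-72958012, both on the minus strand, from the start to the stop codon including introns (GENCODE annotation of GRCm38).
Tmsb4x: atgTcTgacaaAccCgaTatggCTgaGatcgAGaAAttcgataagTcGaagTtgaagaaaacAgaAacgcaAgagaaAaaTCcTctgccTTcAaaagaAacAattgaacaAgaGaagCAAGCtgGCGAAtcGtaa
Tmsb10: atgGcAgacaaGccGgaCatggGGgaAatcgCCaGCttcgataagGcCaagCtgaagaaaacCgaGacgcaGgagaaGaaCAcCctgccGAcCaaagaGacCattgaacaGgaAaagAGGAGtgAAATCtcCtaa

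The next 3 genes lie together on the X chromosome, on the minus strand of the same build. Tmsb15b2 spans chrX:136955445-136956834, Tmsb15b1 spans chrX:136974202-136975497 and Tmsb15l spans chrX:136955445-136975497, again between start and stop codon. Capitals in Tmsb15b1, which is no member but is needed for the comparison, mark the 4 of 138 bases that differ from Tmsb15b2 (97.1% the same). Capitals in Tmsb15l mark the 138 of its 243 coding bases that occupy the very positions of Tmsb15b2. A further 100 of its bases occupy positions of Tmsb15b1 and 5 occupy neither, so Tmsb15l is annotated as a transcript running through both genes.
Tmsb15b2: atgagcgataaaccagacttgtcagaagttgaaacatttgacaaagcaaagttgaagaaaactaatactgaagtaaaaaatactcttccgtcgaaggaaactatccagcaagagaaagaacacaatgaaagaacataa
Tmsb15b1: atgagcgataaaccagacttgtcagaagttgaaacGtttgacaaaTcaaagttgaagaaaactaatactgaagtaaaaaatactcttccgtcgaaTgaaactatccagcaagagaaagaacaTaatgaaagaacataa
Tmsb15l: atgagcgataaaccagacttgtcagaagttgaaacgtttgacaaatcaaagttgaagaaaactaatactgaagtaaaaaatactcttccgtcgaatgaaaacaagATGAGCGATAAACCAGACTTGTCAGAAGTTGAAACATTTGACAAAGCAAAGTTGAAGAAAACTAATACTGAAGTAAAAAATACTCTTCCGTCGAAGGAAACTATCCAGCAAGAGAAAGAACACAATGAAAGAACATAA

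The libraries held 3205822 to 9366774 reads on genes, and 3 reads, the smallest amount treated as detected, equal 0.320 to 0.936 CPM (reads scaled to a common total per library). Sgo1 had 2 to 6 reads in RAG1-/- and 0 to 6 in RAG1-/-Sgo1-/+, which cannot show whether 1 copy was lost. Lung markers were present throughout, among them the surfactant gene Sftpc (12426 to 20390 CPM) and the endothelial gene Pecam1 (304 to 376 CPM). A few libraries stood apart from the rest. Replicate 1 held 7717 reads of Xist against 4 to 8 in the others, replicate 2 held 1853 reads of the immunoglobulin gene Igkc against 0 to 8, which goes against its RAG1-/- label, and replicate 6 held summed macrophage markers of 6501 CPM against 434 to 880.

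Of the 10 genes, 9 had the 10 reads needed for testing and Tmsb4x did not. Tmsb15b2 and Tmsb15l had equal reads in all 6 libraries, so the 9 genes stand for 8 sets of reads. In RAG1-/-Sgo1-/+ against RAG1-/-, 3 were higher and 6 lower, with a median log2 fold change of -0.11 against 0.034 over all 17231 genes tested. The 3 higher ones, Tmsb10, Fmn1 and Fmnl1, were lower when counts were not scaled to library totals, a setting that put the median of all genes at -0.59. None had a Benjamini-Hochberg adjusted P under 0.05 in the quasi-likelihood test of edgeR, nor did any gene in the table (0%), where the smallest adjusted P was 0.832. By DESeq2 and by limma-voom 0 of the 9 passed as well. Over all 17231 genes an unadjusted P under 0.05 was found for 5.66% in edgeR, for 694 genes in DESeq2 and for 837 in limma-voom. It was found for 3 of the 9 with each of these tools. These were Tmsb15b2, Tmsb15l and Fmn2, all at least 2-fold lower, as 0.696% of all genes were at that P (1.35% in either direction). In 4 of the 9, these and Fmnl2, every RAG1-/-Sgo1-/+ library lay below every RAG1-/- library, against 5.54% of all genes (11.8% in either direction), and in 0 of the 9 did every one lie above, against 6.24%. Fmn2, Tmsb15b2 and Tmsb15l reached the 10 reads only through RAG1-/-, and the last 2 share their reads, so these counts are given as a description and nothing is read from them against the shares of all genes.

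**Figure D1:**
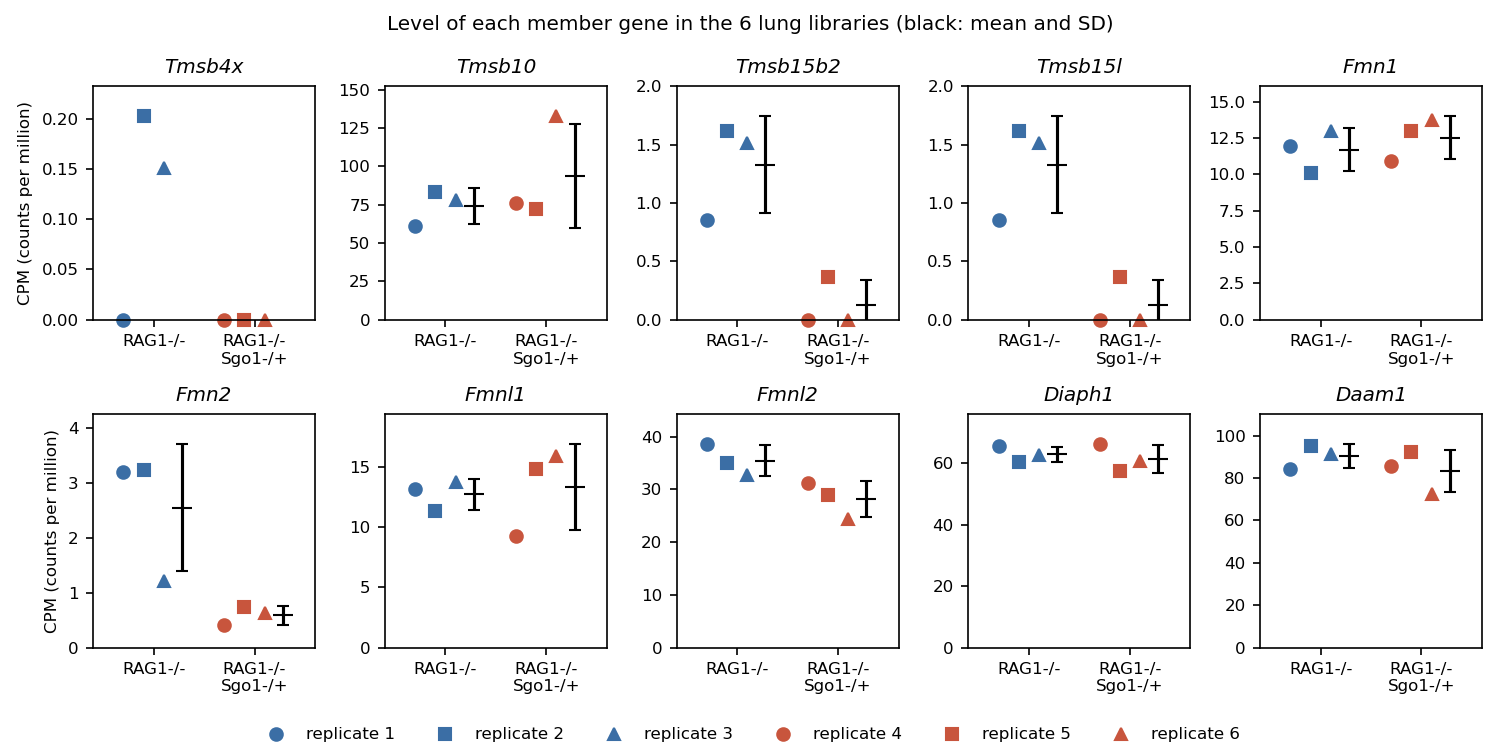
CPM of each gene (vertical axes, each from 0 with its own scale) in the RAG1-/- and RAG1-/-Sgo1-/+ libraries. Each point is 1 library, with the replicates told apart by colour and shape, and the black lines give the mean and SD of 3 libraries, drawn no lower than 0 and left out for Tmsb4x. Replicate 6 stands above the other libraries for Tmsb10, and the groups do not overlap for Tmsb15b2, Tmsb15l, Fmn2 and Fmnl2.

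Of the monomer-binding genes, Tmsb4x was almost without reads. It had 0, 1 and 1 reads in RAG1-/- against 0, 0 and 0 in the RAG1-/-Sgo1-/+ libraries, 2 in all, so no level or fold can be given for either group. Its coding sequence differs from that of Tmsb10 at the 40 bases shown, and of 163 windows of 50 bases along its transcript 0 recurred in another annotated gene. Leukocyte markers summed to 545 to 1157 CPM and endothelial markers to 1253 to 1662 CPM in the same libraries. Why the gene is listed so low was not tested, and copies of its sequence outside annotated transcripts were not searched.

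Tmsb10, the other widely expressed monomer-binding peptide, had the highest level of the 9 genes tested per kb of exon, while Daam1 had more reads. It had 573, 414 and 517 reads in RAG1-/- against 376, 391 and 425 in the RAG1-/-Sgo1-/+ libraries. As CPM these were 61.2, 83.6 and 78.2 (74.4 ± 11.7, SD, n = 3) and 76.0, 72.4 and 132.6 (93.7 ± 33.8, n = 3). The groups overlapped, and replicate 6 alone, at 1.58 times the highest other library, set the higher mean. The log2 fold change was 0.33 (SE 0.23, 95% interval -0.18 to 0.84, edgeR adjusted P=0.856; exact permutation P=0.6, two-sided), and without replicate 6 it was 0.00054 (SE 0.16). Replicate 6 also had the macrophage markers given above and the highest leukocyte markers, 1157 CPM against 545 to 715; their part in the Tmsb10 value was not tested. Of 129 windows of 50 bases along its transcript, 56 (43.4%) recurred in another annotated gene, so its level depends on how the authors' software assigned such reads, which is not stated.

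Over the 6 libraries, the genes whose pattern lay closest to that of Tmsb10 were Arpc1b, a subunit of the Arp2/3 complex that starts branched filaments, the lipid kinase gene Pip4k2a and the receptor gene Lrp1. Their root mean square differences from it were 0.113, 0.115 and 0.115 in log2 CPM centred on each gene's mean, among 5369 genes compared. Arpc1b had 46.4, 55.6 and 55.8 CPM in RAG1-/- against 52.3, 52.8 and 78.9 CPM in the RAG1-/-Sgo1-/+ libraries. It was picked for its likeness to Tmsb10, so its high value in replicate 6 follows from the choice and nothing is read from it.

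Tmsb15b2 and Tmsb15l, of the smaller thymosin beta 15 group, had few reads, and these lay almost wholly in RAG1-/-. Each had 8, 8 and 10 reads in RAG1-/- against 0, 2 and 0 in the RAG1-/-Sgo1-/+ libraries, 28 in all. As CPM these were 0.854, 1.62 and 1.51 (1.33 ± 0.41, SD, n = 3) and 0, 0.370 and 0 (0.12 ± 0.21, n = 3), with every RAG1-/-Sgo1-/+ library at or below the 3 reads treated as detected. The fitted log2 fold change was -3.01 (SE 1.12, 95% interval -5.51 to -0.52, P=0.0227 and adjusted P=0.832 in edgeR; exact permutation P=0.1, the smallest that 3 against 3 libraries allow). With RAG1-/-Sgo1-/+ set to 3 reads per library, the level was 1.90-fold lower. That value takes the RAG1-/- mean without error, and the 95% interval of the fit reaches nearer to 0, so it is no lower limit. Both genes passed the limit of 10 reads only through RAG1-/-, which held 26 of the 28 reads, so their place among the lower genes is a description. Leaving out replicate 5 removed the last reads of RAG1-/-Sgo1-/+ and moved the fitted value to -5.95.

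The equal counts mean that the lower value was measured once, not in 2 genes. The coding bases of Tmsb15b2 are all coding bases of Tmsb15l, as the capitals above show. Along the whole transcripts, 56 of 81 windows of Tmsb15b2 (69.1%) and 98 of 154 of Tmsb15l (63.6%) recurred in another gene. The values of each are therefore uncertain. Tmsb15b1, which differs from Tmsb15b2 at 4 coding bases, had 2, 0 and 7 reads in RAG1-/- against 2, 6 and 0 in the RAG1-/-Sgo1-/+ libraries (fitted log2 difference 0.34, SE 1.27, edgeR adjusted P=0.979). Tmsb15a, the remaining gene of this group, had 0 reads in every library.

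Among the formins, Fmn2, which is known for positioning the spindle in oocytes and for its expression in neurons, had the largest fitted fold change. It had 30, 16 and 8 reads in RAG1-/- against 2, 4 and 2 in the RAG1-/-Sgo1-/+ libraries. As CPM these were 3.20, 3.23 and 1.21 (2.55 ± 1.16, SD, n = 3) and 0.404, 0.741 and 0.624 (0.59 ± 0.17, n = 3). The groups did not overlap, though replicate 3 lay nearer to the RAG1-/-Sgo1-/+ libraries than to the other RAG1-/- libraries. Replicates 4 and 6 lay below the 3 reads treated as detected, so the size of the difference is uncertain. The fit gave a level 4.20-fold lower in the RAG1-/-Sgo1-/+ libraries (fitted log2 difference -2.07, SE 0.69, 95% interval -3.61 to -0.53, P=0.0133 and adjusted P=0.832 in edgeR; exact permutation P=0.1). Of the 62 reads of Fmn2, 54 lay in RAG1-/- and 8 in the other group, so the gene reached the 10 reads needed for testing only through the group where it was high, and its P is a description. The adjusted P was not past the threshold, and with any 1 library left out the log2 fold change stayed between -2.40 and -1.85.

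The reads behind Fmn2 were few. Of the counts between 1 and 20, 78.7% to 81.6% per library were even, and libraries were sequenced from both ends, so a count of 2 may be 1 fragment. Halved and rounded up, Fmn2 had 15, 8 and 4 in RAG1-/- against 1, 2 and 1 in the RAG1-/-Sgo1-/+ libraries, and the log2 fold change was -2.04. Among the 2507 genes with 20 to 100 reads in all, the median SE of the log2 fold change was 0.78, 20.1% had a fitted change of at least 2-fold and 1.76% were at least 2-fold lower at an unadjusted P under 0.05. Among the 10538 genes with at least 400 reads these were 0.17, 0.579% and 0.218%. None of the 1279 windows of 50 bases along Fmn2 recurred in another gene.

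Summed neutrophil markers did not overlap between the groups, at 70.3 to 116 CPM in RAG1-/- and 22.8 to 56.7 CPM in RAG1-/-Sgo1-/+, with 4 of 4 tested lower and Ly6g at 3 reads or fewer. Red blood cell markers were lower in 4 of 4, with sums of 2736 to 7349 CPM in RAG1-/- and 2091 to 3813 CPM in RAG1-/-Sgo1-/+ that overlapped. B and plasma cell markers were lower in 7 of 7 and adipocyte markers in 5 of 5, with 1 library apart in each list, replicate 2 at 653 CPM against 9.29 to 11.6 and replicate 1 at 403 CPM against 45.0 to 96.4. These are the lists of cell markers in which every tested gene was lower, and the other lists were mixed or higher. The part of these cell types in the lower Fmn2 and Tmsb15b2 values was not tested. The genes closest to Fmn2 in pattern were Gm10644, Lrmda and Slc13a4, with root mean square differences of 0.272, 0.276 and 0.317 in log2 CPM among 15823 genes. They had 4 reads or fewer in each RAG1-/-Sgo1-/+ library, like Fmn2 itself.

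**Figure D2:**
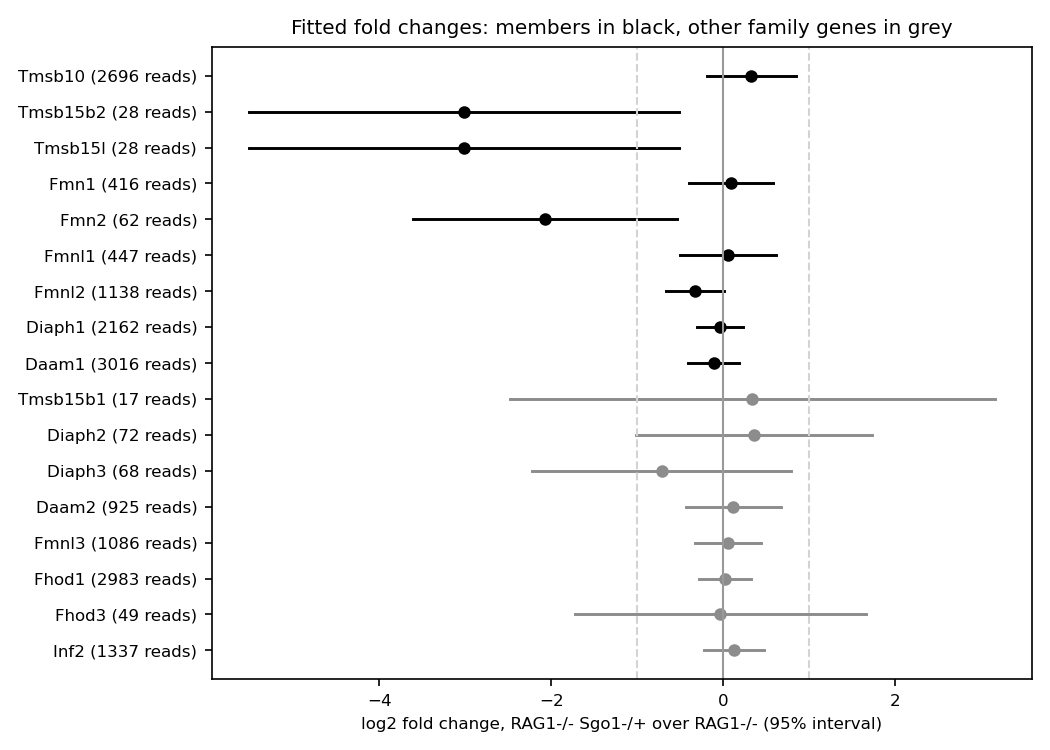
Fitted log2 fold change (horizontal axis, RAG1-/-Sgo1-/+ over RAG1-/-) with its 95% interval for the 9 genes tested, in black, and 8 other genes of the same families, in grey, with the reads of all 6 libraries in brackets. Dashed lines mark 2-fold. The intervals of Fmn2 and of Tmsb15b2 and Tmsb15l are wide and lie below 0, and those of the genes with over 400 reads lie within 2-fold.

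Fmnl2, a formin of lamellipodia and filopodia that acts with Cdc42, was modestly lower. It had 38.5, 35.0 and 32.7 CPM in RAG1-/- (35.4 ± 2.95, SD, n = 3) against 31.1, 28.9 and 24.3 CPM in the RAG1-/-Sgo1-/+ libraries (28.1 ± 3.46, n = 3). Every RAG1-/-Sgo1-/+ library lay below every RAG1-/- library, by a gap smaller than the SD of either group. The log2 fold change was -0.33 (SE 0.15, 95% interval -0.67 to 0.014, P=0.0585 and adjusted P=0.832 in edgeR; exact permutation P=0.1). With 1 library left out it lay between -0.41 and -0.24.

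The remaining formins differed by less than the spread between libraries. Diaph1, a formin that builds stress fibres, had 65.6, 60.6 and 62.8 CPM in RAG1-/- (63.0 ± 2.47, SD, n = 3) against 66.3, 57.4 and 60.8 CPM in the RAG1-/-Sgo1-/+ libraries (61.5 ± 4.46). Its log2 fold change was -0.035 (95% interval -0.30 to 0.23, edgeR adjusted P=0.976). Daam1, which links Wnt and Dishevelled signalling to actin, had 84.0, 95.2 and 91.6 CPM (90.2 ± 5.69) against 85.5, 92.1 and 72.7 CPM (83.4 ± 9.85), and its log2 fold change was -0.11 (95% interval -0.40 to 0.18, edgeR adjusted P=0.905). For both genes the groups overlapped, and the intervals lay within 2-fold in both directions.

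Fmnl1, a formin of blood cells, had 13.1, 11.3 and 13.8 CPM in RAG1-/- (12.7 ± 1.27, SD, n = 3) against 9.29, 14.8 and 15.9 CPM in the RAG1-/-Sgo1-/+ libraries (13.3 ± 3.55). The RAG1-/-Sgo1-/+ libraries held both the lowest and the highest value, and the log2 fold change was 0.054 (95% interval -0.50 to 0.61, edgeR adjusted P=0.982). Fmn1, known for its part in limb development and at cell junctions, had 112, 50 and 86 reads in RAG1-/- (11.7 ± 1.47 CPM) against 54, 70 and 44 in the RAG1-/-Sgo1-/+ libraries (12.5 ± 1.46 CPM). Its groups overlapped, with a log2 fold change of 0.091 (95% interval -0.40 to 0.58, edgeR adjusted P=0.963). The direction of Fmnl1 turned with the library left out, from -0.080 to 0.26.

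**Figure D3:**
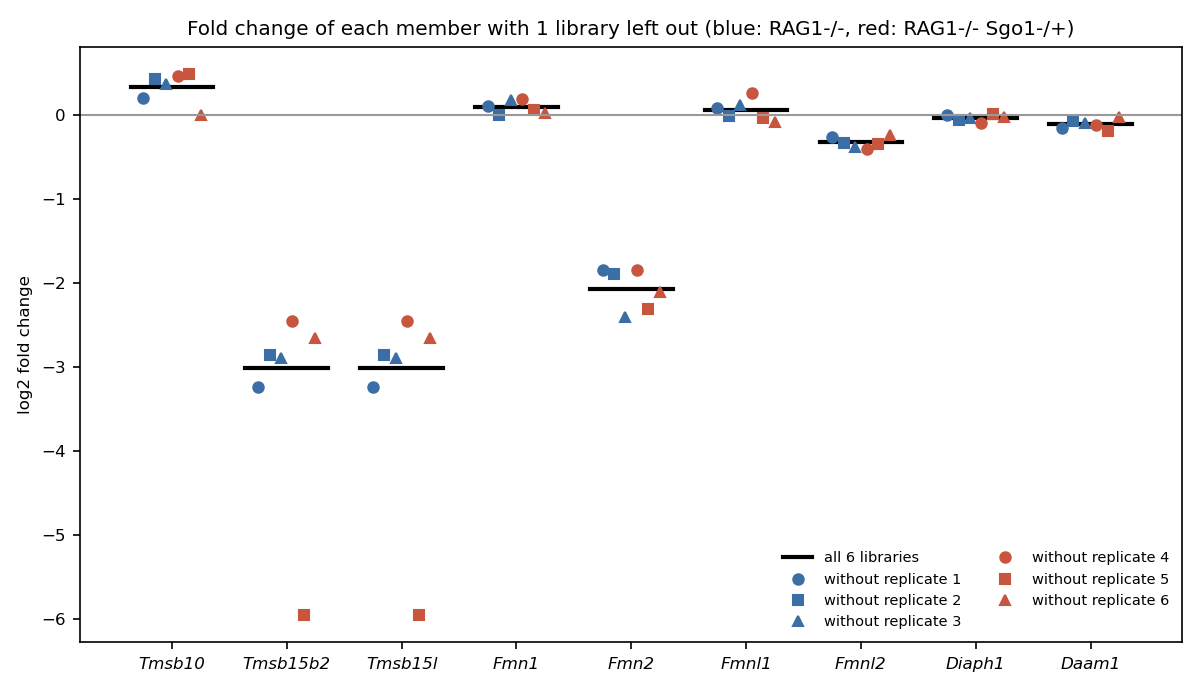
Log2 fold change of the 9 genes tested (vertical axis) with all 6 libraries (black line) and with each library left out (points, blue for RAG1-/- and red for RAG1-/-Sgo1-/+). Fmn2 stays between -2.40 and -1.85, Tmsb10 falls to 0.00054 without replicate 6, and Tmsb15b2 and Tmsb15l move to -5.95 without replicate 5.

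Levels were compared per length, as mean CPM per kb of exon over the 6 libraries. They were highest for Tmsb10 (65.8, range 47.9 to 103.9), then Daam1 (10.7), Diaph1 (9.82), Fmnl2 (5.63) and Fmnl1 (2.67). Tmsb15b2 (1.32), Tmsb15l (0.889), Fmn1 (0.787) and Fmn2 (0.197) followed. Tmsb4x, with 2 reads in all, was not placed in this order. Neighbours in this order did not overlap between Tmsb10 and Daam1, Diaph1 and Fmnl2, Fmnl2 and Fmnl1, and Fmn1 and Fmn2. The other neighbours overlapped in the range of their libraries. Tmsb15b2 and Tmsb15l lay above Fmn1 in RAG1-/- (2.41 and 1.63 against 0.759 CPM per kb). They lay below it in RAG1-/-Sgo1-/+ (0.225 and 0.151 against 0.814 CPM per kb), where each had 0, 2 and 0 reads. Both carry the same reads and reached the 10 reads needed for testing only through RAG1-/-, so nothing is read from this order. All 14 formins in the table summed to 385 to 414 CPM in RAG1-/- and 381 to 403 CPM in RAG1-/-Sgo1-/+. Fmn2 made up 0.774%, 0.800% and 0.315% of formin reads in RAG1-/- against 0.103%, 0.184% and 0.164% in the RAG1-/-Sgo1-/+ libraries, so its lower level hardly touched the sum.

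**Figure D4:**
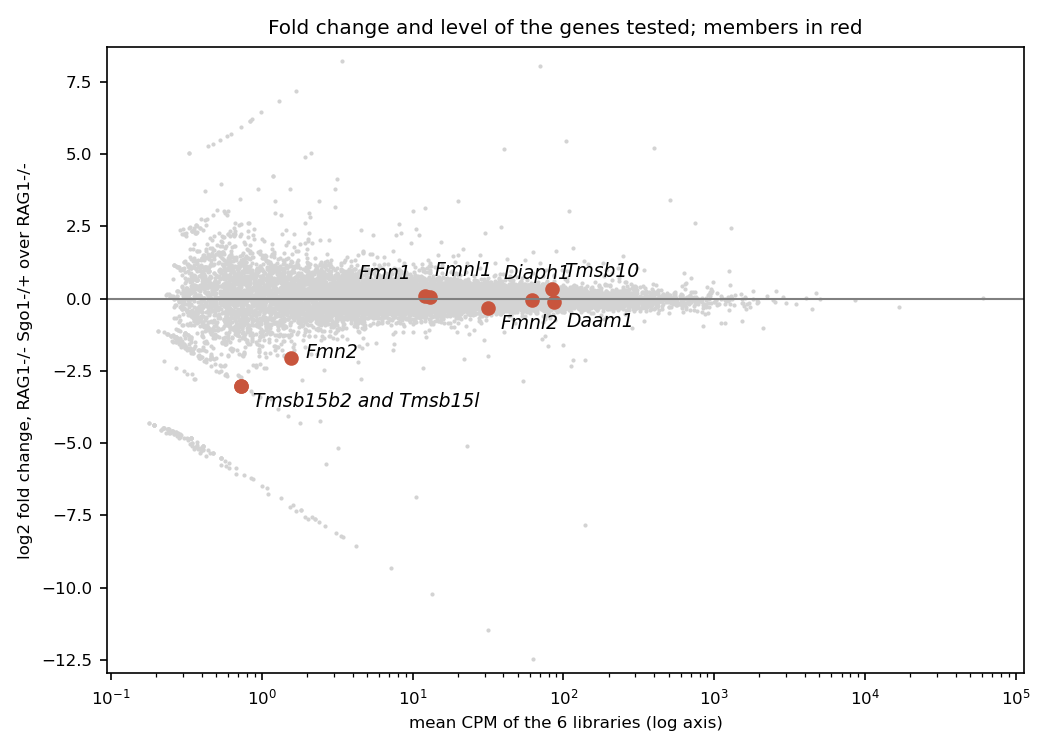
Log2 fold change (vertical axis, RAG1-/-Sgo1-/+ over RAG1-/-) against the mean CPM of the 6 libraries (horizontal log axis) for all 17231 genes tested (grey) and the 9 tested genes described here (red). Fmn2 and the shared point of Tmsb15b2 and Tmsb15l lie at low levels, where grey points spread widely, and the others lie near 0.

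The other formins and thymosin beta genes, fixed as a list with the results of these data known, gave 0 calls among the 8 tested in edgeR, DESeq2 and limma-voom, and 0 at an unadjusted P under 0.05 in each. The well-counted ones were close to 0, with log2 fold changes of 0.021 for Fhod1, 0.12 for Inf2, 0.055 for Fmnl3 and 0.12 for Daam2 (edgeR adjusted P of 0.911 or more). Diaph3, a formin of dividing cells, had 31, 6 and 13 reads in RAG1-/- against 11, 3 and 4 in the RAG1-/-Sgo1-/+ libraries (fitted log2 difference -0.72, SE 0.67, edgeR adjusted P=0.882), and its groups overlapped. Diaph2 had 20, 4 and 16 reads against 18, 8 and 6 (fitted log2 difference 0.36, SE 0.61, edgeR adjusted P=0.945). Fhod3 had 9, 10 and 10 reads against 14, 4 and 2 (fitted log2 difference -0.033, SE 0.76, edgeR adjusted P=0.997). The groups overlapped for these genes too. The formin Grid2ip had 2 reads in all and was not tested.

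The wider actin machinery was read from 6 lists holding 60 genes, of which 58 were tested. Of these 36 were higher and 22 lower in RAG1-/-Sgo1-/+, with a median log2 fold change of 0.14 against 0.034 over all genes. Without scaling to library totals the median of each of the 6 lists lay below 0, between -0.69 and -0.21. None had an adjusted P under 0.05 by edgeR, DESeq2 or limma-voom. At an unadjusted P under 0.05 there were 6 in edgeR (10.3%), 4 in DESeq2 and 5 in limma-voom. Over all 17231 genes tested there were 976 in edgeR (5.66%), 694 in DESeq2 and 837 in limma-voom. The 6 of edgeR were Actg2, Acta2, Ssh1, Wasf2, Jmy and Flii, and all were higher, where 3.15% of all genes were higher and 2.52% lower at that P. Only 1 of them, Actg2, was at least 2-fold higher, as 0.656% of all genes were at that P.

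The actins, whose subunits thymosins bind and formins assemble, were higher in 6 of 6 with a median log2 fold change of 0.50. That median was 0.23 without replicate 2 and -0.21 without scaling to library totals. It also rests on Acta1, which had 12 reads in all (fitted log2 difference 0.71, SE 1.59). Actb, Actg1 and Actc1 lay between 0.22 and 0.29. Actg2, the enteric smooth muscle actin, had 38, 20 and 15 reads in RAG1-/- against 34, 49 and 40 in the RAG1-/-Sgo1-/+ libraries. As CPM these were 4.06, 4.04 and 2.27 against 6.87, 9.08 and 12.5 (fitted log2 difference 1.43, SE 0.37, adjusted P=0.832 in edgeR). Acta2, the vascular smooth muscle actin, had 33.1, 44.0 and 33.7 CPM in RAG1-/- against 45.3, 66.3 and 73.6 CPM in the RAG1-/-Sgo1-/+ libraries (fitted log2 difference 0.74, SE 0.20, adjusted P=0.832 in edgeR). In CPM, every RAG1-/-Sgo1-/+ library lay above every RAG1-/- library in both genes, as in 6.24% of all genes. The adjusted threshold was not passed. Actb, the main cytoplasmic actin, had overlapping groups (log2 fold change 0.24, SE 0.15). Smooth muscle markers, a list that shares Acta2 with the actins, had 5 of 5 higher and summed to 125 to 176 CPM in RAG1-/- and 165 to 237 CPM in RAG1-/-Sgo1-/+. Their part in the actin values was not tested.

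The list of actin monomer binding and turnover was higher in 11 of 16 with a median log2 fold change of 0.16. It holds regulators of cofilin, among them Ssh1, beside genes that bind monomers, so the count is not 1 of monomer-binding genes alone. Ssh1, a phosphatase that activates cofilin, had 5.44, 4.65 and 5.30 CPM in RAG1-/- against 8.48, 8.34 and 14.3 CPM in the RAG1-/-Sgo1-/+ libraries (fitted log2 difference 0.99, SE 0.31, adjusted P=0.832 in edgeR). Cfl1, cofilin itself, had overlapping groups (log2 fold change 0.25). Of the factors that switch on branched assembly and the other nucleators, 9 of 14 were higher (median 0.074), among them Wasf2, of the WAVE complex, with 53.9, 45.9 and 42.8 CPM against 73.7, 63.9 and 56.8 CPM (log2 fold change 0.45, adjusted P=0.832 in edgeR). The Arp2/3 complex, which those factors activate, was lower in 6 of 9 (median -0.062) with 0 at an unadjusted P under 0.05.

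Capping and severing proteins were higher in 5 of 10 (median -0.025), with Flii, a gelsolin relative, at 0.30 (adjusted P=0.832 in edgeR). The transcription factor gene Srf and its coactivators Mrtfa and Mrtfb, which respond to the pool of free actin monomers, were higher in 2 of 3 (median 0.051) with 0 at an unadjusted P under 0.05.

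**Figure D5:**
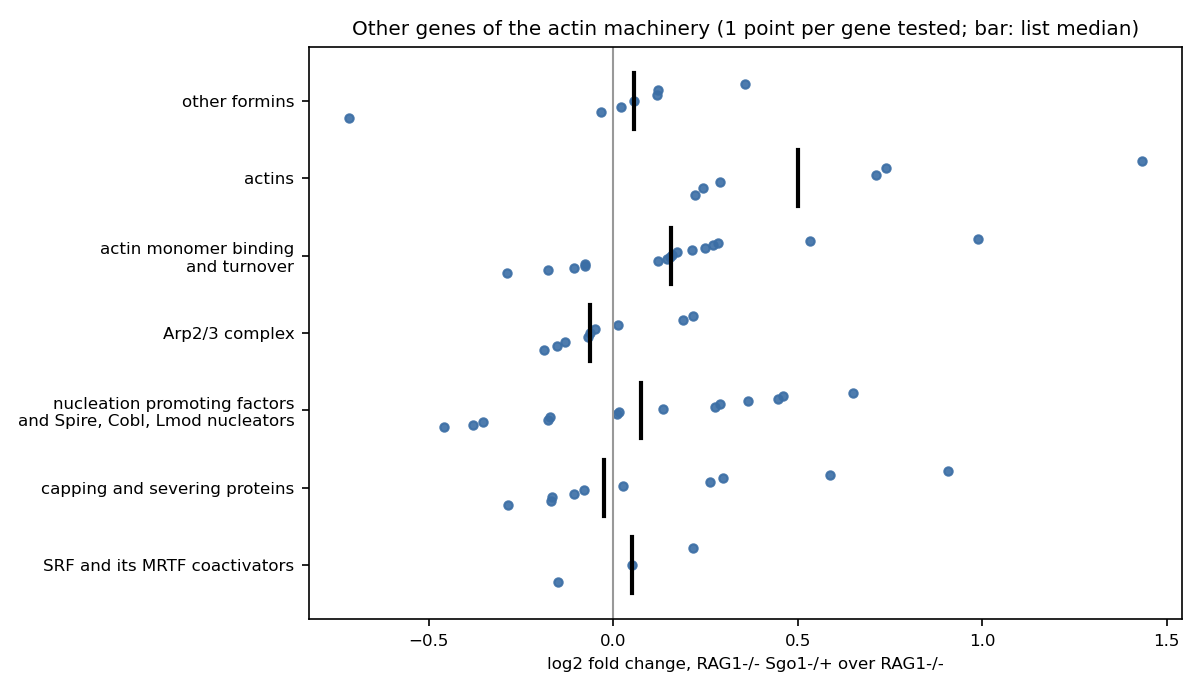
Log2 fold change (horizontal axis, RAG1-/-Sgo1-/+ over RAG1-/-) of each tested gene in the list of other formins and the 6 lists of actin machinery (1 point per gene), with each list's median as a black bar. All 6 actins lie above 0 (median 0.50, and -0.21 without scaling to library totals), with Acta1 at 12 reads in all. The medians of the other lists lie between -0.062 and 0.16.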

How the data were processed

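Total RNA of normal-looking lung was sequenced by the authors on an Illumina MiSeq, 1 library per mouse, 3 mice per group. Reads on each of 25860 genes were deposited as whole counts without normalization, which the authors made with GeneSifter and, per the file headers, on mouse build 37.2. The submitters' processing notes name BWA and edgeR, with settings, annotation and the handling of reads with several matches not given in the sources used here. Every library's column is repeated with the same values, and the repeat was ignored. A second deposited list, of the authors' own comparison with fold changes and p-values, was not used. Entrez IDs gave a symbol for 24048 genes (93.0%).

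Samples were grouped by their labels. Genes with at least 10 reads summed over the 6 libraries (17231) were compared in edgeR 4.0.16 (R 4.3.3) by its quasi-likelihood test, using the total count as library size, and P was adjusted by Benjamini-Hochberg over all of them. A call needs an adjusted P under 0.05 and at least 2-fold. The SE is the log2 fold change over the square root of F. Exact permutation tests on CPM are two-sided, with 10 splits and a smallest P of 0.1. CPM use totals of 3205822 to 9366774 reads, and floors of 3 reads cover counting error only. Exon lengths and sequences came from GENCODE on GRCm38, another build than that of the counts. The workflow was tested on simulated data. Alternatives were TMM factors, DESeq2 size factors, no scaling, no filter, filterByExpr, DESeq2 1.42.0, limma-voom (limma 3.58.1), halved counts, a prior count of 2 and libraries left out. Other genes named are, per list, up to 4 by unadjusted P, beside those needed to describe a member. Members and lists were chosen with earlier results of these data known. Some list results are not reported here.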

Additional observations from a re-analysis of the deposited data

How the results depend on the processing

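No paired analysis was possible because the groups share no replicate number. The count of genes past the adjusted threshold and 2-fold was 0 and was 72 without scaling to library totals (11 higher, 61 lower), 1 with DESeq2 (Awat1) and 233 with an unadjusted P. With 1 library left out it lay between 0 and 1, the 1 being H2-K1, found without RAG1-/-Sgo1-/+ replicate 5. The other settings gave 0. No member passed in any of these except, at the unadjusted P, Fmn2, Tmsb15b2 and Tmsb15l. Without scaling, the median of all genes fell to -0.59, and Tmsb10 (-0.34), Fmn1 (-0.56) and Fmnl1 (-0.61) turned lower. Fmnl1 also turned to -0.0085 with limma-voom, and to between -0.080 and 0.26 with 1 library left out. Diaph1 lay between -0.094 and 0.013 with 1 library left out, and turned to 0.013 without replicate 5. With replicates 2 and 6 left out together Fmn1 was -0.061, Fmnl1 -0.15 and Daam1 0.017. Of 141 values of members under alternatives, 11 turned direction, all for genes with a main value within 0.33 of 0, and 0 newly passed the threshold. Tmsb15b2, Tmsb15l, Fmn2 and Fmnl2 kept their direction in each setting that could test them. RAG1-/- held 26 of the 28 reads that Tmsb15b2 and Tmsb15l share, and 54 of the 62 reads of Fmn2. With so few reads in RAG1-/-Sgo1-/+, these settings could hardly turn Tmsb15b2, Tmsb15l and Fmn2, so nothing is read from their kept direction. A prior count of 2 gave -1.63 for Fmn2 and -1.77 for Tmsb15b2 and Tmsb15l, and halved counts gave -2.04 and -2.80. The filter filterByExpr dropped these 3 genes. Without scaling the list medians lay between -0.69 and -0.16, so their direction is relative to library totals. Depth limits Fmn2, Tmsb15b2, Tmsb15l and Tmsb4x, whose reads were 62, 28, 28 and 2 in all.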

Other observations

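Equal counts were not limited to Tmsb15b2 and Tmsb15l. Of the genes tested, 261 (1.51%) had 6 counts equal to those of another gene. Sequence shared between genes also went along with low counts over the whole table. Among 21045 genes with an annotated transcript, 3 reads or fewer in all were found for 20.1% of the 10315 genes with no window of 50 bases in another gene, 23.9% of the 9359 with up to 50% of windows shared, 36.9% of the 842 with 50 to 90% shared and 60.5% of the 529 with more. Tmsb4x, with 0 of 163 windows shared and 2 reads, belongs to the first of these, and Tmsb10, with 43.4% shared and 2696 reads, to the second. Whether lung expresses the genes of each class was not taken into account, and why their counts differ was not tested. The windows cover annotated transcripts only.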
